A study of Rattus norvegicus with 20 samples.

Results

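Endothelial adhesion and vessel growth genes were followed in the inflamed rat oesophagus. The 10 genes were taken by symbol from the array annotation and fall into 3 roles: the inducible adhesion genes Selp, Sele, Icam1 and Vcam1, the endothelial lineage genes Pecam1, Vwf, Kdr, Cdh5 and Tek, and the vessel growth gene Angpt2. All 10 were measured, by 14 probes, among 13619 genes tested. Wistar rats were operated on to induce reflux oesophagitis and given no drug (untreated), STW5 at 0.5 ml/kg (low dose), STW5 at 2 ml/kg (high dose) or omeprazole at 30 mg/kg, and a further group had a sham operation. Dosing began 7 days before surgery and went on for 10 days after it, when the oesophagus was removed. Each of the 5 groups has 4 one-colour arrays, each from 1 animal according to the design. STW5 is a fixed combination of herbal extracts used for functional gut disorders, and omeprazole blocks the gastric proton pump. No vehicle-treated group is named in the labels.

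Leukocytes leave the blood in steps. P-selectin (Selp) and E-selectin (Sele) on activated endothelium catch and roll passing cells, and ICAM-1 (Icam1) and VCAM-1 (Vcam1) then bind leukocyte integrins and hold the cells firmly. Cytokine signalling through NF-kappaB is a well-known inducer of Sele, Icam1 and Vcam1, whereas Pecam1, Vwf, Kdr, Cdh5 and Tek are commonly used to recognise endothelium whether activated or not. Angpt2 is an endothelial ligand of the receptor Tek that counters Angpt1 and loosens vessels for remodelling. Selp and Vwf are also made by megakaryocytes, Pecam1 is also carried by platelets and leukocytes, and Icam1 and Vcam1 are also made by several non-endothelial cells. The samples were whole oesophageal tissue, in which more cells of a type and more RNA per cell cannot be told apart.

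Promoters of members were looked at because all 4 inducible genes rose in untreated rats against sham and fell with the low dose and omeprazole. With the high dose 1 of the 4, Icam1, was called. A further reason was that NF-kappaB is a well-known inducer of Sele, Icam1 and Vcam1. RefSeq promoter sequences (build GRCr8) were at hand for 4 of the 10 members: Sele (chr13:78936264-78936513, plus strand), Icam1 (chr8:27829595-27829844, plus strand), Vcam1 (chr2:206742784-206743033, minus strand) and Kdr (chr14:32571813-32572062, plus strand). The 250 bases before each transcription start are printed 5′ to 3′ on the gene's own strand, with a match to the NF-kappaB consensus in capitals.
Sele: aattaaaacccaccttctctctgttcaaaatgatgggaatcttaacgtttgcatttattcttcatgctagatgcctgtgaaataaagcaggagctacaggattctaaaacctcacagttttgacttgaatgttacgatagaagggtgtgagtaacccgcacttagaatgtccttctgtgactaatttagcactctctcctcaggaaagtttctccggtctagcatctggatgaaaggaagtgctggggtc
Icam1: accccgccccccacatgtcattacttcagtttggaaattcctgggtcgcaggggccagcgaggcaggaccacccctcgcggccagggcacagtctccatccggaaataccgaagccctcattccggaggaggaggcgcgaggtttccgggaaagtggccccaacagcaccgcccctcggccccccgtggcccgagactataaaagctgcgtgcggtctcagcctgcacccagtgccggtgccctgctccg
Vcam1: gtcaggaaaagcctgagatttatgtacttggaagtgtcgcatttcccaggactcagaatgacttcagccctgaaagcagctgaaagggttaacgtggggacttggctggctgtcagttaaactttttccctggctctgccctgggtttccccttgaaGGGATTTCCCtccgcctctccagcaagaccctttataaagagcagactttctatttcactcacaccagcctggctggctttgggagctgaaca
Kdr: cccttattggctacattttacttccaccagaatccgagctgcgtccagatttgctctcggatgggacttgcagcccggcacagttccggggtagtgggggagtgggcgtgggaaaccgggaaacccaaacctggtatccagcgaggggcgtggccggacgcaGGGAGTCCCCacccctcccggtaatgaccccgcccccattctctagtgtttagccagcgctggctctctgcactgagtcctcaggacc
The NF-kappaB consensus searched for was GGGRNWYYCC, where R is A or G, W is A or T, Y is C or T and N is any base. Searched on either strand, it matched in Vcam1, from -93 to -84 relative to the start, and in Kdr, from -88 to -79. Of 33469 promoters of this length, 3.54% held such a match. Thus 1 of the 3 inducible genes and the 1 lineage gene with a sequence carried it, and the exact consensus is not in these windows of Sele and Icam1. Near matches were not searched for. The Icam1 window holds tggaaattcc, which departs from the pattern at its opening base only. AP-1 (TGANTCA, either strand) matched in 0 of the 4 windows and in 6.34% of all promoters. TATAAA (either strand) matched in Icam1 from -53 to -48 and in Vcam1 from -60 to -55, where an overlapping match on the other strand ran from -62 to -57, and in 12.9% of all promoters. A match describes letters and no binding was measured.

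Levels are log2 signals minus the array's 75th percentile, so 0 is the level below which 75% of the features of that array lay, and they are compared between groups only within a gene. A gene is called changed at a limma adjusted p under 0.05 over all genes, and changes are log2 differences ± SE. The share of features well above background was 61.5% to 70.5% per array. Low-dose replicates 1 and 2 differed only 1.39 times as much as repeated spots of 1 array, against at least 2.79 times for other pairs within a group, and were averaged and counted as 1 sample, which left 3 low-dose samples and 19 in all. Sham replicate 2 stood apart from the other sham arrays in neutrophil markers, with a mean 3.56 above the sham mean, while the lowest sham array lay at -1.53. The members' differences from sham are also given without replicate 2. Among the members, sham replicate 2 was the farthest sham array for Sele and Tek, at 1.62 and 0.85 above the sham mean. In the means of the members by role it was not the farthest. The inducible mean lay at -1.18 in sham replicate 1 and at 1.03 in replicate 2, relative to the sham mean. The lineage mean lay at -0.63 and 0.26 in these arrays. Sham arrays lay on a slide of their own, untreated and low-dose arrays shared a slide and so did high-dose and omeprazole arrays, so in every comparison but low dose against untreated and high dose against omeprazole slide and group cannot be told apart. The value table deposited beside the scanner files holds, under all 8 STW5 sample names, the values of the other dose. The sample titles also number the 2 dose groups the other way round from the study's design text, while naming the doses in words. Which assignment is right cannot be told from these sources. The doses named in the titles are kept, and every statement on the 2 doses would be exchanged if the table were right.

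In untreated oesophagitis all 4 inducible adhesion genes were higher than in sham, by 1.76 to 4.15 on the log2 scale with a median of 2.95 (1.94 with a normexp background correction). Of the 5 lineage genes 2 were called, Pecam1 and Kdr, and the changes of the 5 ran from 0.02 to 1.00 with a median of 0.90. In all, 6 of 10 members were called higher and 0 lower, beside 14.9% of all genes called higher and 17.9% called lower. The median change of all genes was -0.08. The untreated arrays were all above the sham arrays for 7 of the 10 members, and for 11.7% of all genes.

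**Figure D1:**
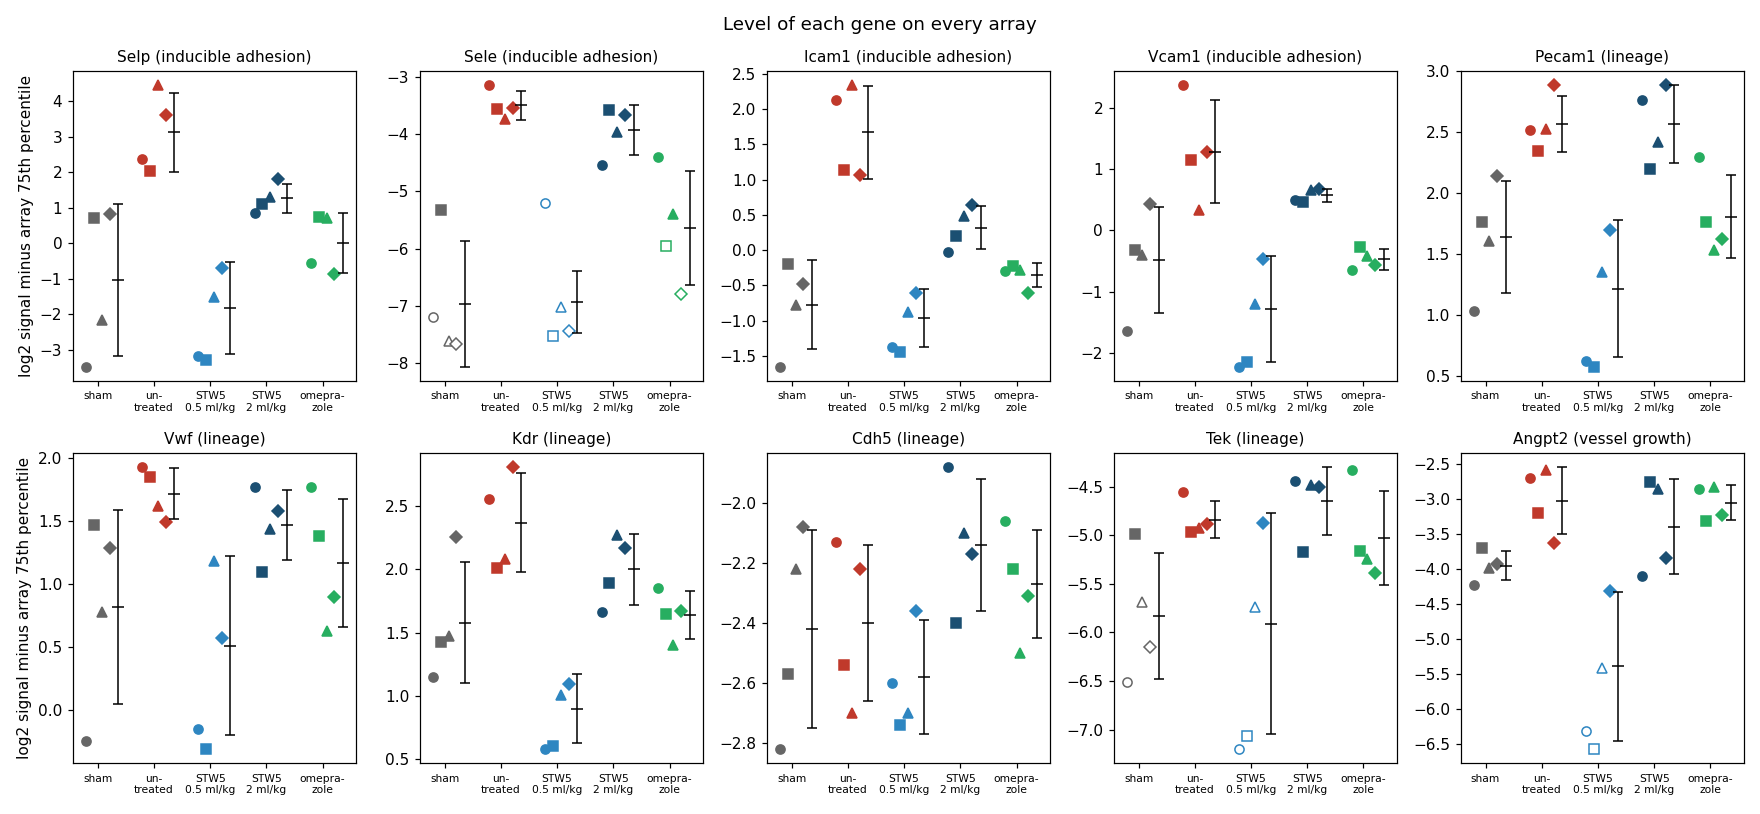
Level of each gene (log2 signal minus the array's 75th percentile) on each of the 20 arrays, by group, with replicates 1 to 4 as circle, square, triangle and diamond, and the group mean ± SD beside them (n = 4, or 3 for low-dose STW5). Open symbols are arrays on which the probe was not well above background. The 4 inducible genes are highest in the untreated group by their mean, and the ranges of Cdh5 overlap between all 5 groups.

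Selp encodes P-selectin, which endothelium brings to its surface from stored granules. Selp lay at -3.48, 0.72, -2.16 and 0.81 in sham replicates 1 to 4 and at 2.38, 2.03, 4.46 and 3.61 in the untreated replicates. All untreated arrays were above all sham arrays, although sham replicates 2 and 4 were far above the other sham arrays. The difference was 4.15 ± 0.84 (17.7-fold, adjusted p = 0.00184). Without sham replicate 2 it was 4.73 ± 0.85 (adjusted p = 0.000894).

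Sele, the selectin that endothelium makes anew on activation, lay at -7.20, -5.33, -7.62 and -7.67 in the sham arrays and at -3.14, -3.56, -3.74 and -3.55 in the untreated ones. The groups did not overlap, and only sham replicate 2 was well above background among the sham arrays while all 4 untreated arrays were. The difference was 3.46 ± 0.50 (adjusted p = 0.000254) and 4.00 ± 0.42 without sham replicate 2. Since most sham arrays were dim, the size depends on the background correction: with a normexp correction it was 0.75 (adjusted p = 0.00053). A second Sele probe gave 3.06 ± 0.46, while a second Selp probe was well above background on 1 array only and showed 0.01 ± 0.27.

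Icam1, a ligand of the leukocyte integrins made of Itgal or Itgam with Itgb2, lay at -1.65, -0.19, -0.78 and -0.48 in the sham arrays and at 2.12, 1.13, 2.34 and 1.07 in the untreated ones. The untreated arrays were all above the sham arrays, with replicates 1 and 3 about a unit above the other untreated arrays. Icam1 rose by 2.44 ± 0.32 (5.43-fold, adjusted p = 0.000181), the smallest adjusted p of the 10 members. Vcam1, which binds the integrin of Itga4 and Itgb1, lay at -1.64, -0.32, -0.40 and 0.43 in sham and at 2.37, 1.14, 0.33 and 1.28 in untreated arrays. Here untreated replicate 3 fell just under sham replicate 4, so the groups overlapped, with a difference of 1.76 ± 0.43 (adjusted p = 0.00556).

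Among lineage genes, Pecam1, a junction molecule through which leukocytes pass, lay at 1.04, 1.77, 1.61 and 2.14 in sham arrays and at 2.52, 2.35, 2.53 and 2.89 in untreated arrays. The groups did not overlap and the rise was 0.94 ± 0.26 (1.91-fold, adjusted p = 0.0126). Kdr, the main signalling receptor for VEGF-A, lay at 1.15, 1.43, 1.47 and 2.26 in sham and at 2.56, 2.01, 2.08 and 2.81 in untreated arrays. Sham replicate 4 reached into the untreated range, and the rise was 0.79 ± 0.24 (adjusted p = 0.0176). That call was lost without sham replicate 1 (0.65, adjusted p = 0.0644), without untreated replicate 1 (0.72, adjusted p = 0.0506) or replicate 4 (0.64, adjusted p = 0.0575), and in a fit of the 2 groups alone (adjusted p = 0.0893).

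Cdh5, the cadherin of endothelial junctions, lay between -2.82 and -2.08 in sham arrays and between -2.70 and -2.13 in untreated arrays. The ranges nearly coincided and the difference was 0.02 ± 0.18, with a 95% interval from -0.36 to 0.41. Vwf, the clotting protein that endothelium stores with P-selectin, lay at -0.25, 1.47, 0.78 and 1.29 in sham and between 1.49 and 1.93 in untreated arrays. Its difference of 0.90 ± 0.35 missed the threshold (adjusted p = 0.0609), passed it without sham replicate 2 (1.11, adjusted p = 0.028) or replicate 4 (1.05, adjusted p = 0.0449), and was 0.54 without sham replicate 1. A second Vwf probe gave 1.01 ± 0.40, and the third was well above background on 4 arrays only.

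Tek, the angiopoietin receptor, was well above background on 1 of 4 sham and all 4 untreated arrays and lay at -6.51, -4.99, -5.69 and -6.15 in sham and between -4.97 and -4.56 in untreated arrays. Untreated arrays were all above sham arrays, though sham replicate 2 almost reached the lowest of them. The difference of 1.00 ± 0.40 was not called (adjusted p = 0.0634), was called without sham replicate 2 (1.28, adjusted p = 0.0218), and was 0.11 with a normexp correction. Angpt2 lay at -4.22, -3.70, -3.98 and -3.92 in sham and at -2.69, -3.20, -2.58 and -3.62 in untreated arrays. All untreated arrays were above all sham arrays by a narrow margin, with a difference of 0.93 ± 0.38 (adjusted p = 0.0717), which passed in a fit of the 2 groups alone (adjusted p = 0.0418), without untreated replicate 4 (1.13, adjusted p = 0.045) and with the normexp correction, where its size was 0.45 (adjusted p = 0.032).

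Without sham replicate 2 the differences were 2.64 for Icam1, 1.81 for Vcam1, 0.98 for Pecam1 and 0.74 for Kdr, all still called (limma adjusted p of 0.0000953, 0.00869, 0.0171 and 0.0384). Cdh5 then differed by -0.03 (adjusted p = 0.934) and Angpt2 by 1.02 (adjusted p = 0.0738). Vwf and Tek, given above, were called as well without that array. The share of all genes called in that fit is not given here, so these calls describe the members alone.

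**Figure D2:**
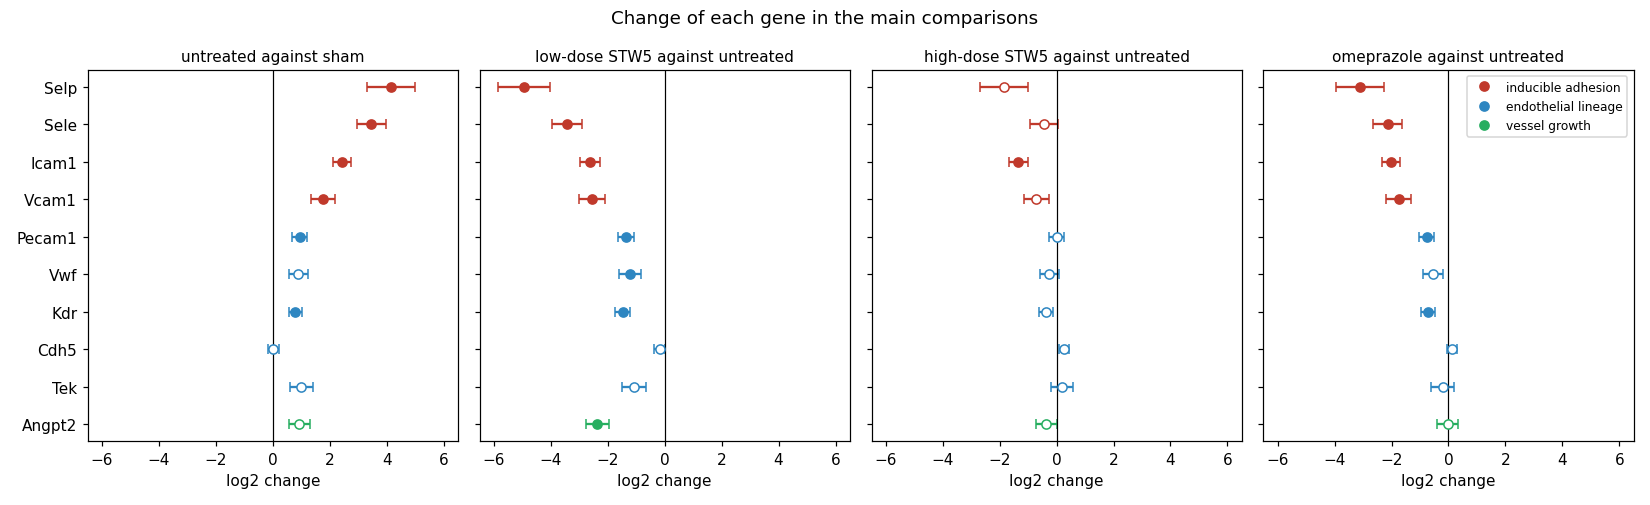
Log2 change ± SE of each gene in 4 comparisons, coloured by role, with filled points for genes called at an adjusted p under 0.05. The 4 inducible genes were 1.76 to 4.15 higher in untreated than in sham rats and fell with the low dose of STW5 and with omeprazole, while 1 gene was called under the high dose.

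With the low dose of STW5, 8 of the 10 members were called lower than in untreated rats and 0 higher, where 15.9% of all genes were called lower and 21.7% higher. The 4 inducible genes fell by 2.56 to 4.94, with a median of -3.03, and the 5 lineage genes had a median of -1.21, beside 0.17 over all genes. The untreated arrays entered this comparison and the one against sham, so the changes of the 2 comparisons are not independent. Both groups lay on 1 slide, and a fit of these 2 groups alone also called the 8, with adjusted p from 0.0132 to 0.0409, beside 10.1% of all genes called lower in that fit. Every low-dose array was below every untreated array in 8 of the 10 members and in 14.6% of all genes.

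Selp lay at -3.17, -3.30, -1.53 and -0.69 in low-dose replicates 1 to 4, below every untreated array, and fell by 4.94 ± 0.91 (adjusted p = 0.000736). Sele lay at -5.20, -7.52, -7.01 and -7.43 and was well above background on 0 of the 4 arrays. Its fold was at least 7.73, taken against the lowest signal well above background on each dim array (adjusted p = 0.000327, measured means -6.93 and -3.50). Replicates 1 and 2, which were otherwise near-identical, differed for Sele, whose probe has 1 spot an array. With the normexp correction the Sele difference was -0.56 (adjusted p = 0.00505).

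Icam1 lay at -1.37, -1.44, -0.87 and -0.61 with the low dose and fell by 2.63 ± 0.35 (adjusted p = 0.000179). Vcam1 lay at -2.22, -2.14, -1.20 and -0.46 and fell by 2.56 ± 0.46 (adjusted p = 0.000677). For both genes every low-dose array was below every untreated array, with the averaged replicates 1 and 2 the lowest.

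Of the lineage genes, Pecam1 (0.63, 0.58, 1.36 and 1.70) fell by 1.35 ± 0.28, Kdr (0.58, 0.60, 1.01 and 1.09) by 1.47 ± 0.26 and Vwf (-0.15, -0.31, 1.18 and 0.57) by 1.21 ± 0.38. Low-dose and untreated arrays did not overlap for any of these 3 genes, with adjusted p of 0.0017, 0.000532 and 0.0198. The Vwf call was lost when the probes of the gene were averaged (-0.96, adjusted p = 0.0512). Tek (-7.20, -7.07, -5.74 and -4.87) was well above background on 1 low-dose array and differed by -1.08 ± 0.43 (adjusted p = 0.0575). It was called with 20 arrays as 20 samples (-1.38, adjusted p = 0.0137) and without low-dose replicate 4 (-1.60, adjusted p = 0.00707), and it was 0.03 with the normexp correction. Cdh5, between -2.74 and -2.36, overlapped the untreated arrays and differed by -0.18 ± 0.20 (adjusted p = 0.492).

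Angpt2 lay at -6.31, -6.57, -5.41 and -4.31 with the low dose and was well above background on replicate 4 alone. All low-dose arrays were below all untreated arrays and below all sham arrays. It fell by 2.37 ± 0.41 against untreated (adjusted p = 0.000554), a difference of -0.69 with the normexp correction (adjusted p = 0.0033). Against sham the difference was -1.43 ± 0.41 and did not pass (adjusted p = 0.485).

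With omeprazole 6 of the 10 members were called lower than in untreated rats, all 4 inducible genes with Pecam1 and Kdr. Of the members 0 were called higher, where 12.2% of all genes were called lower and 15.6% higher. The omeprazole and untreated arrays lay on different slides, so slide and drug cannot be told apart here. This comparison and the one against sham share the untreated arrays. The inducible genes had a median change of -2.08 and the lineage genes of -0.55, beside 0.10 over all genes. For the 6 genes called every omeprazole array was below every untreated array, as it was for 12.6% of all genes.

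Selp lay at -0.57, 0.75, 0.72 and -0.88 with omeprazole and fell by 3.12 ± 0.84 (adjusted p = 0.0119). Sele lay at -4.40, -5.96, -5.39 and -6.79, with replicates 1 and 3 well above background, and fell by 2.14 ± 0.50 (adjusted p = 0.00521), or by 0.80 with the normexp correction. The omeprazole arrays of both selectins spread between the untreated and the lowest sham arrays. Icam1 (-0.30, -0.22, -0.28 and -0.61) and Vcam1 (-0.64, -0.27, -0.41 and -0.56) were tightly grouped, and they fell by 2.01 ± 0.32 and 1.75 ± 0.43 (adjusted p = 0.000418 and 0.00715).

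Pecam1 lay at 2.30, 1.77, 1.54 and 1.63 with omeprazole and fell by 0.77 ± 0.26 (adjusted p = 0.0389). Kdr lay at 1.85, 1.65, 1.40 and 1.67 and fell by 0.73 ± 0.24 (adjusted p = 0.0311). Both lineage calls rest on few arrays: without untreated replicate 4, for example, they were -0.66 (adjusted p = 0.102) and -0.58 (adjusted p = 0.0971), and leaving out untreated replicate 1 or omeprazole replicate 2, 3 or 4 also ended both calls. The Pecam1 call also ended without untreated replicate 3 (adjusted p = 0.0672) and with no filter on dim probes (adjusted p = 0.0537). Vwf (-0.55 ± 0.35), Tek (-0.20 ± 0.40), Cdh5 (0.13 ± 0.18) and Angpt2 (-0.03 ± 0.38) were not called. Angpt2 lay at -2.85, -3.31, -2.83 and -3.23 with omeprazole, inside the untreated range and above every sham array.

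With the high dose of STW5, 1 of the 10 members was called lower than in untreated rats and 0 higher, where 4.41% of all genes were called lower and 5.2% higher. That gene was Icam1, at -0.03, 0.20, 0.48 and 0.64, all below the untreated arrays, with a fall of 1.34 ± 0.32 (adjusted p = 0.0166). The call was lost without untreated replicate 3 (-1.12, adjusted p = 0.0562), without high-dose replicate 1 (-1.23, adjusted p = 0.0665) and in a fit of the 2 groups alone (adjusted p = 0.0564). The inducible genes had a median change of -1.03 and the lineage genes of 0.00.

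Selp lay at 0.86, 1.09, 1.30 and 1.82 with the high dose, below every untreated array and above every sham array, with differences of -1.86 ± 0.84 against untreated (adjusted p = 0.162) and 2.29 ± 0.84 against sham (adjusted p = 0.0978). Sele (-4.54, -3.58, -3.96 and -3.66) was well above background on all 4 arrays and overlapped the untreated group, differing from it by -0.44 ± 0.50 with an interval from -1.49 to 0.61. Vcam1 (0.49, 0.46, 0.65 and 0.67) lay above every sham array and within the wide untreated range, with a difference from untreated of -0.71 ± 0.43 (adjusted p = 0.293), or -0.35 without untreated replicate 1. Pecam1 (2.77, 2.20, 2.42 and 2.89) differed from untreated by 0.00 ± 0.26, with an interval from -0.56 to 0.55. For Vwf the difference was -0.25 ± 0.35, for Kdr -0.37 ± 0.24, for Cdh5 0.26 ± 0.18, for Tek 0.19 ± 0.40 and for Angpt2 -0.36 ± 0.38, and all 5 overlapped the untreated arrays.

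The 2 doses of STW5 differed from each other in 8 of the 10 members, all higher with the high dose, where 10.7% of all genes were called higher. The differences were 3.08 ± 0.91 for Selp, 1.28 ± 0.35 for Icam1, 1.85 ± 0.46 for Vcam1, 1.35 ± 0.28 for Pecam1, 1.10 ± 0.26 for Kdr and 2.00 ± 0.41 for Angpt2, with adjusted p from 0.00474 to 0.0234, and every high-dose array was above every low-dose array in these 6 and in Sele, as in 14.8% of all genes. Sele was at least 5.71-fold higher (adjusted p = 0.00202), but differed by 0.26 with the normexp correction (adjusted p = 0.147), and Tek by 1.27 ± 0.43 (adjusted p = 0.0414) with overlapping arrays and by -0.09 with that correction. With the same correction the Angpt2 difference was 0.42 (adjusted p = 0.048). The Selp call was lost without low-dose replicate 3 (3.23, adjusted p = 0.0604) or high-dose replicate 4 (2.90, adjusted p = 0.058). The Tek call was lost without low-dose replicate 3 or high-dose replicate 1, 3 or 4 and in a fit of the 2 groups alone (adjusted p = 0.0931). Vwf differed by 0.97 ± 0.38 and Cdh5 by 0.44 ± 0.20, and neither was called. With all 20 arrays counted as 20 samples Vwf was called (1.15, adjusted p = 0.0204). Adding the replicate number as a block to the fit of 20 arrays also called Cdh5, whose difference was 0.46 either way (adjusted p = 0.0514 without and 0.0469 with the block).

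Against sham, 0 of 10 members were called with the low dose (limma; 2 at an unadjusted p under 0.05, Kdr and Angpt2, both lower), where 0.00734% of all genes were called higher and 0% lower. At that unadjusted threshold 3.52% of all genes were lower. With omeprazole 0 of 10 were called (2 at an unadjusted p under 0.05, Sele and Angpt2, both higher), where 1.6% of all genes were called higher and 6.52% were higher at an unadjusted p under 0.05. Without sham replicate 2 the omeprazole difference of Sele was 1.86 and was called (adjusted p = 0.0258). For omeprazole that fit called 335 of 13619 genes, in either direction. With the high dose 3 of 10 were called higher, where 6.12% of all genes were: Sele by 3.02 ± 0.50 (adjusted p = 0.00134), Icam1 by 1.10 ± 0.32 (adjusted p = 0.0437) and Pecam1 by 0.93 ± 0.26 (adjusted p = 0.0384). Sele differed by 0.45 with the normexp correction (adjusted p = 0.0393). The calls of Icam1 and Pecam1 ended with no filter on dim probes (adjusted p = 0.057 and 0.0513), in a fit of the 2 groups alone (adjusted p = 0.0613 and 0.0579) and without sham replicate 1 or 3 or high-dose replicate 3 or 4. Leaving out high-dose replicate 1 ended the Pecam1 call and leaving out high-dose replicate 2 the Icam1 call. Without sham replicate 2, Selp (2.87, adjusted p = 0.0418) and Tek (1.47, adjusted p = 0.0285) were called as well with the high dose, and the 3 calls above held. For the high dose that fit called 1476 of 13619 genes, in either direction. With the low dose 0 members were called.

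Between drugs, 0 of 10 members differed between high-dose STW5 and omeprazole, on 1 slide (limma; 3 at an unadjusted p under 0.05, Sele, Vcam1 and Pecam1, all higher with the high dose), where 0.191% of all genes were called higher and 7.13% were higher at an unadjusted p under 0.05. A fit of these 2 groups alone called 2 higher with the high dose, Icam1 (0.67, adjusted p = 0.0477) and Vcam1 (1.04, adjusted p = 0.0057), beside 4.69% of all genes called higher in that fit. With the low dose Angpt2 alone was lower than with omeprazole, by 2.33 ± 0.41 (adjusted p = 0.00379), where 1.87% of all genes were called lower. Its arrays did not overlap, the difference was -0.56 with the normexp correction (adjusted p = 0.0376), and the call was lost in a fit of the 2 groups alone (adjusted p = 0.0592).

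Set side by side on each array, relative to the sham mean, the mean of the 4 inducible genes exceeded that of the 5 lineage genes by 1.91 to 2.60 in untreated arrays, by 0.68 to 1.48 with the high dose and by -0.04 to 0.96 with omeprazole. With the low dose the gap was -0.34 to 0.22 and in sham -0.55 to 0.77. Untreated arrays therefore did not overlap any other group in this gap, and high-dose arrays overlapped sham replicate 2 and omeprazole. The inducible mean was 2.49 to 3.24 in untreated, 1.5 to 2.18 with the high dose, 0.10 to 0.97 with omeprazole, -1.29 to 0.01 with the low dose and -1.18 to 1.03 in sham. The lineage mean was 0.56 to 0.91 in untreated, 0.37 to 0.84 with the high dose, 0.01 to 0.75 with omeprazole, -0.95 to 0.07 with the low dose and -0.63 to 0.34 in sham. Untreated and high-dose arrays thus overlapped in the lineage mean and not in the inducible mean. These means were taken on the main scale only and hold Sele and Tek, which were dim on most sham and low-dose arrays. With the normexp correction the medians of untreated against sham were 1.94 (inducible) and 0.78 (lineage), in place of 2.95 and 0.90. For high dose against sham they were 0.96 and 0.43, in place of 1.69 and 0.65.

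**Figure D3:**
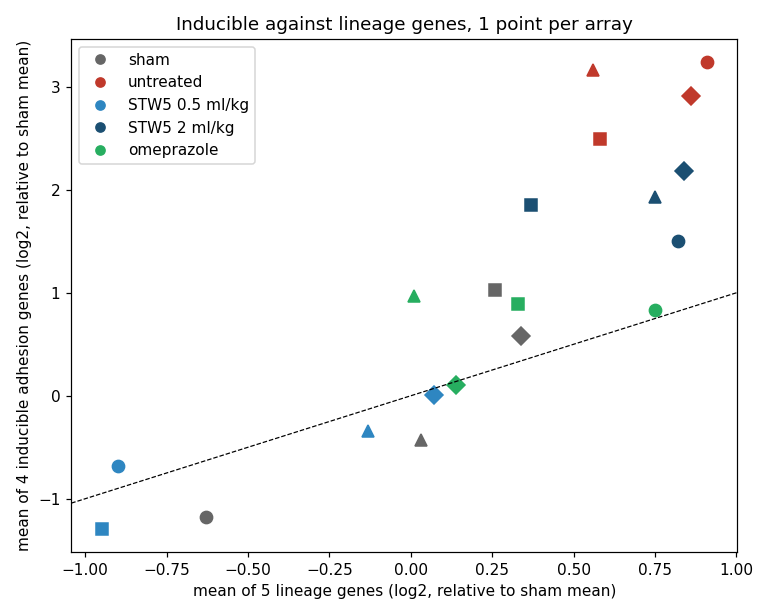
Mean of the 4 inducible genes against the mean of the 5 lineage genes on each of the 20 arrays, both as log2 differences from the sham mean, with replicates 1 to 4 as circle, square, triangle and diamond and the dashed line where both are equal. Untreated arrays lie 1.91 to 2.60 above the line and low-dose arrays within -0.34 to 0.22 of it. Sele and Tek were dim on most sham and low-dose arrays.

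Other endothelial genes were read from a list of 27, of which 22 were measured. In untreated rats 14 of 22 rose against sham and 0 fell, with a median of 1.12 (0.66 with the normexp correction), among them Nos3, the endothelial nitric oxide synthase (1.87 ± 0.29), Esam, a junction adhesion molecule (1.65 ± 0.31), Flt1, a VEGF receptor (1.93 ± 0.37), and Sox18, an endothelial transcription factor (1.72 ± 0.34). With the low dose 17 of 22 fell against untreated, with a median of -1.52 (-0.92 with that correction), with omeprazole 6 of 22 (median -0.47) and with the high dose 2 of 22, Nos3 (-1.06 ± 0.29) and Flt1 (-1.52 ± 0.37). In the last comparison the median of the list was -0.18.

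Of 13 measured vessel growth ligands and receptors 5 rose in untreated rats against sham and 0 fell. Vegfd, a VEGF family ligand, was at least 4.57-fold higher and Angpt4, another angiopoietin, at least 3.11-fold higher, while Hif1a, the oxygen-regulated transcription factor, rose by 2.27 ± 0.38 and Nrp1, a VEGF co-receptor, by 1.10 ± 0.31. Pgf, a ligand of Flt1, rose by 0.87 ± 0.25. Vegfa differed by 0.24 and Angpt1, which activates Tek, by 0.34, and neither was called. Against untreated, 8 of 13 fell with the low dose, 6 with omeprazole and 3 with the high dose. With a normexp correction 3 rose in untreated rats against sham, and 5, 7 and 4 fell in these comparisons against untreated.

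Of the leukocyte partners of the adhesion genes, 9 of 11 rose in untreated rats against sham and 0 fell. Their median was 2.20 (0.84 with the normexp correction). Selplg, the ligand of P-selectin, rose by 2.25 ± 0.41, Itgam and Itgb7, integrin subunits, by 2.34 ± 0.36 and 2.20 ± 0.39, and Itgal, the partner of Itgb2 in the main ICAM-1 receptor, was at least 4.28-fold higher. Against untreated, 11 of 11 fell with the low dose, 9 with omeprazole and 5 with the high dose. Of 8 transmigration and junction genes 0 rose and 2 fell, Jup (plakoglobin, also a desmosome protein of squamous epithelium) by 1.01 ± 0.28 and Cd99l2 by 1.26 ± 0.36. With the low dose Jam2 (-1.40) and Jam3 (-1.26) fell and Jup (1.18) and Ctnnd1 (0.57) rose.

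NF-kappaB pathway genes rose in 9 of 10 cases in untreated rats against sham, with a median of 1.78. Tnf, a cytokine that activates endothelium, rose by 4.24 ± 0.70 and Il1r1, the interleukin-1 receptor, by 2.05 ± 0.31. The inhibitors Nfkbie and Nfkbia rose by 2.15 ± 0.26 and 1.72 ± 0.26. Against untreated, 9 of 10 fell with the low dose, 7 with omeprazole and 5 with the high dose, and Tnf was lower in all 3, with changes of -3.50 ± 0.75, -3.57 ± 0.70 and -2.83 ± 0.70. Under the high dose Nfkbie (-1.60 ± 0.26) and Nfkbia (-1.49 ± 0.26) fell beside Icam1, whereas Sele was not called.

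**Figure D4:**
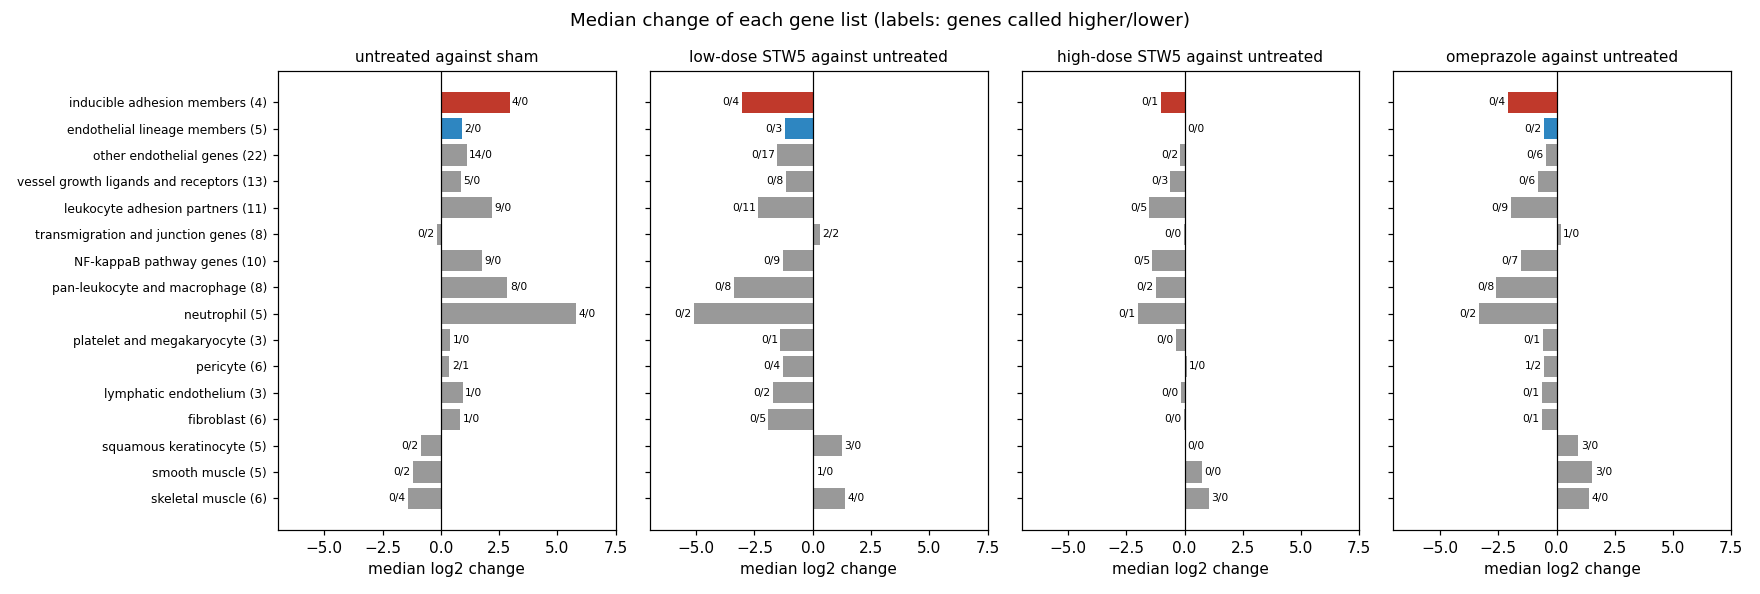
Median log2 change of the inducible and lineage genes and of 14 gene lists (number of genes measured in brackets) in 4 comparisons, with the numbers called higher and lower beside each bar. In untreated against sham the neutrophil, inducible and pan-leukocyte medians are the highest (5.82, 2.95 and 2.86, or 2.72, 1.94 and 2.73 with the normexp correction, which changes their order), and the muscle medians lie below 0.

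Markers of other cells moved as well. Pan-leukocyte and macrophage markers rose in 8 of 8 cases in untreated rats against sham (Mrc1, Tyrobp, Cd14 and Aif1 by 2.80 to 3.87). Neutrophil markers rose in 4 of 5 (Camp by 5.82 ± 0.86, Csf3r by 5.23 ± 1.06). Camp and Csf3r were each well above background on 1 of 4 sham arrays, and with the normexp correction they rose by 2.72 and 2.55. The mean of the leukocyte list relative to sham was 2.17 to 3.60 in untreated, 1.07 to 1.92 with the high dose, 0.00 to 0.76 with omeprazole and -1.20 to 0.24 with the low dose. Of the platelet markers, 1 of 3 rose (Pf4 by 3.11 ± 0.54), Ppbp (0.40) and Gp9 (-0.02) were not called, and Gp1ba was not well above background on any array. Lymphatic endothelium had 1 of 3 higher (Pdpn, also on fibroblasts and keratinocytes, by 2.30 ± 0.46), and Prox1, its defining factor, was well above background on 1 of the 20 arrays. Pericyte markers had 2 of 6 higher (Pdgfrb by 1.97 ± 0.37 and Kcnj8 by 1.56 ± 0.35) and Abcc9 lower (-0.78 ± 0.27).

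Fibroblast markers had 1 of 6 higher in untreated rats than in sham (Pdgfra by 1.64 ± 0.33). Keratinocyte markers had 2 of 5 lower, smooth muscle markers 2 of 5 and skeletal muscle markers 4 of 6, whose mean was -1.67 to -1.14 in untreated arrays, against -0.30 to 0.18 in sham. With the low dose 5 of 6 fibroblast markers and 4 of 6 pericyte markers fell against untreated, as did 8 of 8 leukocyte markers. Without sham replicate 2 the counts of all 14 lists in untreated against sham were the same, except that 1 of 5 keratinocyte markers was lower. What part these cells had in the changes of the 10 members was not tested.

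The named genes whose pattern over the 19 samples was most like that of Sele, after centring each gene, were Trpc6, Clec9a and Jak3, with root mean square differences of 0.68, 0.69 and 0.72 beside a spread of Sele itself of 1.59. For Cdh5, whose spread was 0.26, they were Tcf3, Mx2 and Rab2b, each at 0.17. These are descriptions over samples that share the group structure.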

How the data were processed

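The deposited scanner files hold, per the file headers, the background-subtracted intensity of each feature from Agilent Feature Extraction 10.7.3.1, not scaled between arrays. The authors' deposited value table holds a ratio, each signal over the array's median, and was used as an alternative only. No genome build or statistical test is given in the sources used here.

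Outlier spots were dropped, spots of a probe averaged on the log2 scale and each array's 75th percentile subtracted. Of 30367 probes, those with at least 50% of spots well above background on at least 4 arrays were kept, with the brightest probe per gene. Probe symbols were updated through RefSeq. All 5 groups were fitted in limma 3.58.1 (lmFit, eBayes; R 4.3.3; 14 residual and 2.78 prior degrees of freedom), with Benjamini-Hochberg adjustment over 13619 genes and 95% intervals. The fit was tested on simulated gene values for untreated against sham, and the steps before the fit were not tested in this way. Array number limits precision. A fold marked "at least" takes each dim array at its lowest signal well above background. Alternatives were other background corrections, normalizations, filters, probe rules, samples and blocks, exchanged dose labels and the leaving out of each array.

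The members and lists were chosen with earlier results of these data known. All members are named. From each list up to 4 genes with the smallest p in untreated against sham are named, with those that fell. Others were added after values were seen. The main fit used no pairing. Replicate numbers entered an alternative fit only, as a block. For the doses of STW5, deviations of same-numbered arrays correlated at 0.115 to 0.238 in all 4 pairs. That is a sign from the data, since the labels state no pairing. Single pairs elsewhere correlated more, up to 0.578 for low dose against sham, where the lowest pair was at -0.298. Separate animals are given only by the series description.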

Additional observations from a re-analysis of the deposited data

Results flagged for a closer look

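One group of 4 arrays held an array far from the others among 40 examined, where chance flags about 1 in 20. Tek in high-dose STW5 replicate 2 lay at -5.17, while the nearest of the other high-dose arrays lay at -4.50 and the farthest at -4.44. The probe was well above background on that array.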

How the results depend on the processing

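The doses of STW5 were exchanged, or the authors' value table was used, which has the same effect. Then 1 member was called for the low and 8 for the high dose against untreated. The counts were 3 and 0 against sham, and 0 and 1 against omeprazole. In the same order 1308 and 5117, 1174 and 1, and 30 and 339 of 13619 genes were called in either direction. Differences then reversed for high against low dose (Selp -3.08, Sele -3.00, Icam1 -1.28, Vcam1 -1.85, Pecam1 -1.35, Vwf -0.97, Kdr -1.10, Cdh5 -0.44, Tek -1.27, Angpt2 -2.0), for low dose against untreated (Cdh5 0.26, Tek 0.19), for high dose against untreated (Cdh5 -0.18, Tek -1.08) and for high dose against sham (Icam1 -0.19, Pecam1 -0.42). The normexp correction reversed Tek in high against low dose (-0.09). The other values it reversed were not called. They were Cdh5 in untreated against sham (-0.03) and, against untreated, Tek with the low dose (0.03). With the high dose against untreated they were Tek (-0.06) and Pecam1 (0.01). Quantile normalization reversed Cdh5 (-0.03) and Pecam1 (0.05) in these same comparisons. The cause was not tested.

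No filter on dim probes left 1 member called for high dose against sham, beside 928 of all genes in either direction. Probes well above background on all arrays left 5 for high against low dose, of 7 measured, beside 2811 of all genes. For low dose against omeprazole they left 0, beside 238 of all genes. Fits of 2 groups alone called 0 (high dose against untreated), 1 (high dose against sham), 2 (high dose against omeprazole) and 0 (low dose against omeprazole). Of 13619 genes these fits called 499, 1104, 1173 and 188 in either direction. Low dose against omeprazole had 2 with 20 arrays as 20 samples, beside 1143 of all genes. It also had 2 with the replicate block, fitted on the same 20 arrays, beside 1161 of all genes. Tek for low dose against untreated (-1.38) and Vwf between doses (1.15) were called in both of these fits. Against 20 arrays without it, the block changed, of the 54 member values, the call of Cdh5 between doses alone, which made 10 members there in place of 9. Outside that comparison same-numbered arrays correlated from -0.323 to 0.578, so whether numbers pair them cannot be told from these values.

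Leaving out 1 array gave 5 to 8 members called in untreated against sham. Against untreated it gave 8 to 9 (low dose), 0 to 1 (high dose) and 4 to 6 (omeprazole). Against sham it gave 0 to 1, 1 to 5 and 0 to 1 in the same order. It gave 6 to 8 between doses, 0 to 0 for high dose and 1 to 1 for low dose against omeprazole. The shares of all genes called in these fits are not given here, so these counts describe the members alone. Leaving out 1 array reversed only Cdh5 in untreated against sham (-0.11 to 0.14, reversed values -0.11 to -0.03), Pecam1 with the high dose against untreated (-0.11 to 0.12, reversed 0.05 to 0.12) and Angpt2 with omeprazole against untreated (-0.23 to 0.11, reversed 0.03 to 0.11). In all, 850 of 989 values kept direction and call. Slide as a random block could not be fitted, since each group lies on 1 slide. Raising signals to the background floor was added after seeing the data and called Tek in untreated against sham (0.92, adjusted p = 0.0346). In some comparisons the median of all genes moved by over 0.1 with normexp, for instance from -0.15 to -0.28 between doses. In untreated against sham it moved from -0.08 to -0.11, and in low dose against untreated from 0.17 to 0.23. Sele, Tek and Angpt2 were not well above background on part of the arrays, which limits the precision of their sizes.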
